A study of Caenorhabditis elegans with 24 samples.

Results

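The small (40S) ribosomal subunit of Caenorhabditis elegans holds 1 ribosomal RNA and a set of proteins whose genes carry the WormBase prefix rps. The members described here were taken by name alone, as the genes of the count tables whose symbol begins with rps-, and no measured value entered the choice. They were 30 genes of 19669 in all. The symbol table lists 31 such names, and rps-23 was not analysed here. Adult worms of 2 strains were sampled: a strain labelled deltaC38delta4.9 and Metl5, for a deletion in metl-5 (C38D4.9) and called the metl-5 mutant below, and wild type (WT, strain N2). Each strain was sampled at 37 °C and at 20 °C. The groups were therefore metl-5 mutant at 37 °C, metl-5 mutant at 20 °C, WT at 37 °C and WT at 20 °C, and no transgene or drug is given for any of them. Messenger RNA (mRNA) and ribosome footprints, the stretches of mRNA protected by ribosomes, were each sequenced in 3 libraries for every strain and temperature, 24 libraries in 8 groups. The time at 37 °C and the library protocol were details not given in the sources used here. Whether the 3 libraries of a group were separate cultures is unknown, so p-values measure only the spread between these samples, which may be technical.

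As background, the small subunit binds the mRNA and the initiator transfer RNA and decodes the codons, while the large (60S) subunit joins amino acids. Its proteins are made in nearly equal numbers in every growing cell, are carried into the nucleolus and are placed on the ribosomal RNA in a fixed order. In vertebrates, mRNAs of ribosomal proteins begin with a pyrimidine tract through which the target of rapamycin (TOR) kinase sets their translation, and translation of most mRNAs falls in heat-shocked cells while that of heat shock mRNAs goes on. METL-5 is a methyltransferase that places N6-methyladenosine on the RNA of the small subunit. Proteins shared by bacteria, archaea and eukaryotes have names beginning with uS and those of archaea and eukaryotes, or of eukaryotes alone, names beginning with eS. By these names 14 members were uS and 16 were eS proteins, and 13 sit in the head of the subunit and 17 in its body and platform.

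Each mRNA library held 15522050 to 17239906 gene counts, each footprint library at 37 °C 4410194 to 10947947 and each at 20 °C 11503305 to 19012050. The members' counts in a library ran from 14182 to 109007 for mRNA and from 400 to 62414 for footprints. The mRNA of metl-5 stood at 2.15 to 3.38 CPM (counts in every 1000000 gene counts of a library) in the 6 mutant libraries and at 6.48 to 10.2 in the 6 WT libraries, without overlap, and the deleted stretch is not given. Its footprints reached 7.85 and 5.35 CPM in the libraries labelled metl-5 mutant 37 °C replicates 2 and 3, within the 4.44 to 8.40 of WT. The same libraries held 63 and 57 footprint counts of ZK228.3, a gene with 0 counts in every mutant mRNA library. The libraries labelled WT 20 °C replicate 2 and WT 37 °C replicate 3 held 147 and 27 counts of cTel55X.1, which had 0 counts in every WT mRNA library. Footprints of the heat shock gene hsp-70 stood at 6909 CPM in the library labelled WT 37 °C replicate 2, against 17602 and 24087 in the other WT libraries at 37 °C. They stood at 5083 CPM in the library labelled metl-5 mutant 20 °C replicate 2, against 25.5 and 10.8 in the other mutant libraries at 20 °C. Footprint comparisons of the temperatures are therefore also given without the pair of libraries with intermediate hsp-70 and without all 6. Leaving out all 6 keeps 1 footprint library at 37 °C in each strain, replicate 1, which is then assumed to vary like the 2 libraries left in each 20 °C group (2 residual degrees of freedom), and 34.8% of the reads of the WT one were unmapped. Of 8 marker genes of adult tissues, all detected in every mRNA library, the yolk gene vit-2 stood at 3725 CPM or above and the oocyte gene rme-2 at 179 CPM or above, so the markers did not go against the label adult.

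Levels below are TMM-scaled CPM, after trimmed-mean (TMM) scaling of the libraries, and differences are log2 values ± SE from the count model. All of them compare a gene with the rest of its own library, because the labels name no spike-in. In whole worms, fewer cells of a type and less RNA per cell cannot be told apart.

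The 30 small subunit genes were among the most abundant transcripts of the worms. Per kilobase of exon, all 30 lay within the top 1% of genes by mRNA in each of the 4 groups. The highest was rps-25 (eS25, a head protein that some viral RNAs need to start translation), with 17322 ± 3808, 9169 ± 2458, 17962 ± 5250 and 10665 ± 1609 CPM per kilobase in the metl-5 mutant at 37 °C, metl-5 mutant at 20 °C, WT at 37 °C and WT at 20 °C (SD, n = 3 each). The lowest was rps-2 (uS5, at the channel where mRNA enters), with 3734 ± 896, 1568 ± 225, 3748 ± 1097 and 1942 ± 424 CPM per kilobase in the same groups. From highest to lowest mRNA level the members of a group spanned 4.64-fold to 5.85-fold. In each group every one of the 29 pairs of neighbours in that order had overlapping libraries, so the order between neighbours was not resolved.

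Summed over the members, the small subunit took on average more of the mRNA and less of the footprints at 37 °C, values given here as a description without a test. Its share of mRNA gene counts was 13.1, 10.5 and 12.6% in the mutant at 37 °C, against 9.40, 8.08 and 10.1% at 20 °C. In WT it was 14.02, 10.8 and 12.8% at 37 °C, against 11.4, 9.80 and 10.3% at 20 °C. The mutant groups did not overlap, while the lowest WT library at 37 °C fell below the highest at 20 °C. Of the footprints the members took 3.45, 4.30 and 3.35% in the mutant at 37 °C, against 5.49, 5.08 and 6.15% at 20 °C. In WT they took 2.84, 5.42 and 3.24% at 37 °C, against 4.88, 5.92 and 6.15% at 20 °C. Again the mutant groups did not overlap, and in WT the library labelled 37 °C replicate 2, the one with intermediate hsp-70, stood among those at 20 °C.

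**Figure D1:**
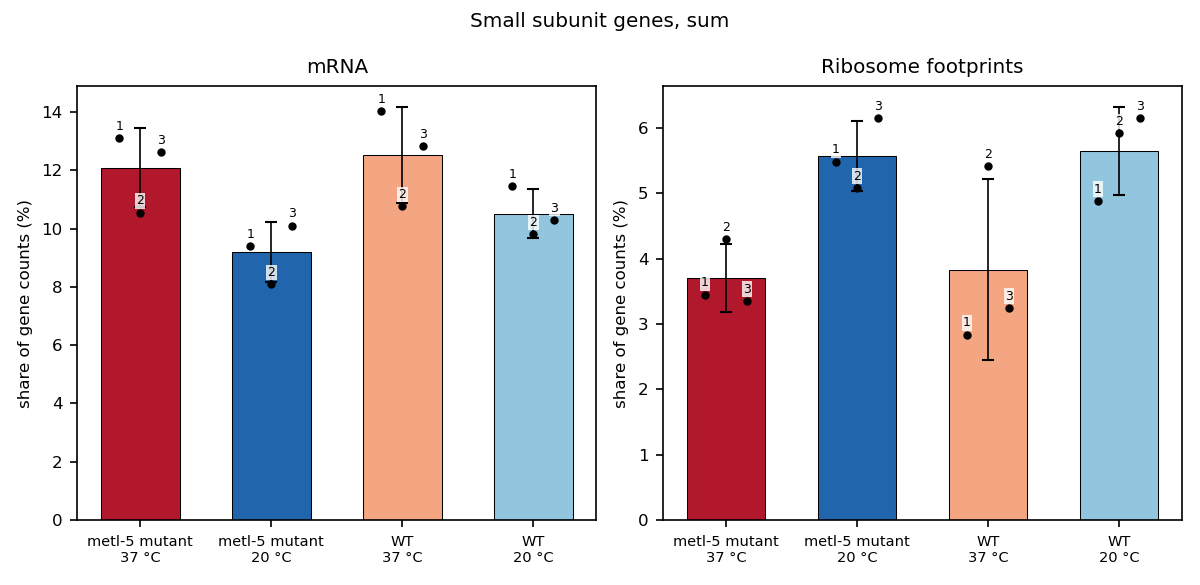
Share of all gene counts taken by the 30 small subunit genes together (y axis, %), for mRNA on the left and ribosome footprints on the right, by strain and temperature. Bars are means, error bars SD (n = 3), and numbered points the replicates. The mutant mRNA share averaged 12.1% at 37 °C and 9.19% at 20 °C, and its footprint share 3.70% at 37 °C and 5.57% at 20 °C.

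The mRNA of many members rose at 37 °C relative to other transcripts, and no member's change differed between strains past the threshold. In the mutant 23 of 30 rose, where 10.8% of the 13315 genes tested rose, with a median difference of 0.96 over the members and -0.01 over all genes. In WT 11 of 30 rose, where 9.76% of all genes did, with a median of 0.74 over the members and -0.02 over all genes. The 3 libraries at 37 °C all lay above the 3 at 20 °C for 24 members in the mutant (21.2% of all genes) and for 17 in WT (16.2% of all genes). The test was edgeR's quasi-likelihood test with Benjamini-Hochberg adjustment over all genes at 0.05. In the mutant the genes of 15 of the 17 body and platform proteins and of 8 of the 13 head proteins rose, and in WT 9 and 2. By name class, 11 of 14 uS and 12 of 16 eS members rose in the mutant, and 4 and 7 in WT. These counts rested on single libraries. Shares of all genes are not given for the fits without 1 library, so counts from them cannot be set against the whole table. Without the library metl-5 mutant 37 °C replicate 1 the mutant count was 8, without replicate 3 it was 9, and without the 20 °C replicates 1 or 2 it was 12 or 10. The WT count was 1 without WT 37 °C replicate 1, 22 without replicate 2, 2 without replicate 3, and 5 or 2 without the 20 °C replicates 2 or 3. When libraries were scaled by total gene counts alone, 10 members rose in the mutant and 6 in WT, with medians of 0.36 and 0.24, while the medians of all genes moved to -0.60 and -0.49. The share of all genes that rose under this scaling is not given here.

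Some markers of adult tissues moved in the same libraries. The mRNA of the oocyte gene oma-1 stood at 64.9, 112 and 56.4 CPM in the mutant at 37 °C, against 266, 309 and 259 CPM at 20 °C, and at 50.9, 120 and 59.2 CPM in WT at 37 °C, against 193, 307 and 268 CPM at 20 °C. The cuticle collagen gene col-19 stood at 5803, 4540 and 5145 CPM in the mutant at 37 °C, against 2787, 2128 and 2241 CPM at 20 °C, and at 4948, 3557 and 4267 CPM in WT at 37 °C, against 2627, 1790 and 1872 CPM at 20 °C. Neither gene's groups overlapped, and at 37 °C replicate 2, where the members took the lowest share of mRNA, had the highest oma-1 and the lowest col-19 in both strains. Of the 8 markers, 2 were higher and 1 lower at 37 °C without overlap in the mutant, and 3 were higher and 1 lower in WT, with none at 0 in any library. The temperatures overlapped for 5 in the mutant and 4 in WT, among them the other oocyte gene, rme-2, in both strains. The summed mRNA of the 8 markers was 21757 to 24160 CPM in the mutant at 37 °C, against 12643 to 20279 CPM at 20 °C, and 16936 to 21502 CPM in WT at 37 °C, against 11945 to 15403 CPM at 20 °C. Their part in the members' mRNA values was not tested.

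The largest mRNA difference belonged to rps-20, which encodes uS10, a head protein beside the mRNA channel. Its mRNA stood at 4313, 3282 and 5371 CPM in the mutant at 37 °C, against 1736, 1582 and 748 CPM at 20 °C. In WT it stood at 5131, 2922 and 5127 CPM at 37 °C, against 2197, 2020 and 768 CPM at 20 °C. All libraries at 37 °C lay above all at 20 °C in both strains, and replicate 3 was the lowest at 20 °C in both. The difference was 1.67 ± 0.40 in the mutant (adjusted p = 0.00966) and 1.40 ± 0.40 in WT (adjusted p = 0.0245, edgeR); the WT call was lost when the library WT 37 °C replicate 1 or 3 or WT 20 °C replicate 3 was left out, with adjusted p of up to 0.0953.

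Next came rps-8, for eS8, a body protein at the foot of the subunit. It had 8081, 5500 and 8044 CPM in the mutant at 37 °C, against 2722, 2243 and 1894 CPM at 20 °C. In WT it had 9364, 5276 and 7835 CPM at 37 °C, against 3885, 3146 and 2005 CPM at 20 °C. Neither strain's groups overlapped, and the differences were 1.66 ± 0.31 in the mutant (adjusted p = 0.00219) and 1.31 ± 0.31 in WT (adjusted p = 0.00917, edgeR).

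Another member that rose was rps-6, which encodes eS6, the body protein that S6 kinase phosphorylates in mammals. It stood at 4196, 2719 and 4777 CPM in the mutant at 37 °C, against 1646, 1225 and 1388 CPM at 20 °C. WT libraries gave 4971, 2670 and 4717 CPM at 37 °C, against 2281, 1742 and 1379 CPM at 20 °C. Groups did not overlap in either strain, with differences of 1.46 ± 0.31 in the mutant (adjusted p = 0.0044) and 1.19 ± 0.30 in WT (adjusted p = 0.0141, edgeR). Of similar size were rps-22 (uS8), rps-1 (eS1), rps-17 (eS17), rps-4 (eS4) and rps-2 (uS5), which rose by 1.25 to 1.44 in the mutant and by 0.95 to 1.20 in WT, all past the threshold. Without the library WT 37 °C replicate 1 only rps-8 still passed in WT, so rps-6 and these genes lost their WT calls.

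Closer to the middle lay rps-27, for eS27, a zinc-binding protein of the platform. Its mRNA stood at 3221, 2146 and 3383 CPM in the mutant at 37 °C, against 1550, 1234 and 1261 CPM at 20 °C. In WT it stood at 3713, 2276 and 3517 CPM at 37 °C, against 2219, 1756 and 1287 CPM at 20 °C. It rose by 1.11 ± 0.28 in the mutant (adjusted p = 0.0128) and by 0.85 ± 0.28 in WT (adjusted p = 0.0463, edgeR), in WT with only a narrow gap between the lowest library at 37 °C and the highest at 20 °C. The WT call of rps-27 was lost as well without the library WT 37 °C replicate 1. Past the threshold in the mutant but not in WT was rps-0, which encodes uS2, the counterpart of human RPSA. It had 6623, 4698 and 8461 CPM in the mutant at 37 °C, against 3168, 2219 and 4404 CPM at 20 °C. In WT it had 7996, 4326 and 8044 CPM at 37 °C, against 4144, 3171 and 4437 CPM at 20 °C, where replicate 2 at 37 °C overlapped the 20 °C group. The difference was 1.01 ± 0.33 in the mutant (adjusted p = 0.0392) and 0.79 ± 0.33 in WT (adjusted p = 0.0994, edgeR).

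At the low end stood the genes of the smallest proteins of the set, both of the head: rps-28 (eS28, by the mRNA exit) and rps-29 (uS14, which binds zinc). The mRNA of rps-28 stood at 2629, 1615 and 2330 CPM in the mutant at 37 °C, against 1570, 1143 and 2473 CPM at 20 °C. In WT it stood at 3018, 1762 and 2584 CPM at 37 °C, against 2313, 1630 and 2627 CPM at 20 °C. The groups overlapped in both strains, with differences of 0.34 ± 0.32 and 0.16 ± 0.32 (adjusted p = 0.474 and 0.749, edgeR, mutant and WT). For rps-29 the values were 2959, 1697 and 2614 CPM in the mutant at 37 °C, against 1764, 1303 and 2418 CPM at 20 °C. WT gave 3630, 1931 and 3356 CPM at 37 °C, against 3016, 1864 and 2459 CPM at 20 °C. These overlapped as well, with differences of 0.41 ± 0.32 and 0.28 ± 0.32 (adjusted p = 0.386 and 0.565, edgeR, mutant and WT). Under scaling by total gene counts both genes had values below 0, at -0.24 and -0.18 in the mutant and -0.34 and -0.23 in WT. With them, rps-12, rps-9, rps-19, rps-24 and rps-15 did not pass in either strain, at 0.59 to 0.81 in the mutant and 0.39 to 0.65 in WT.

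**Figure D2:**
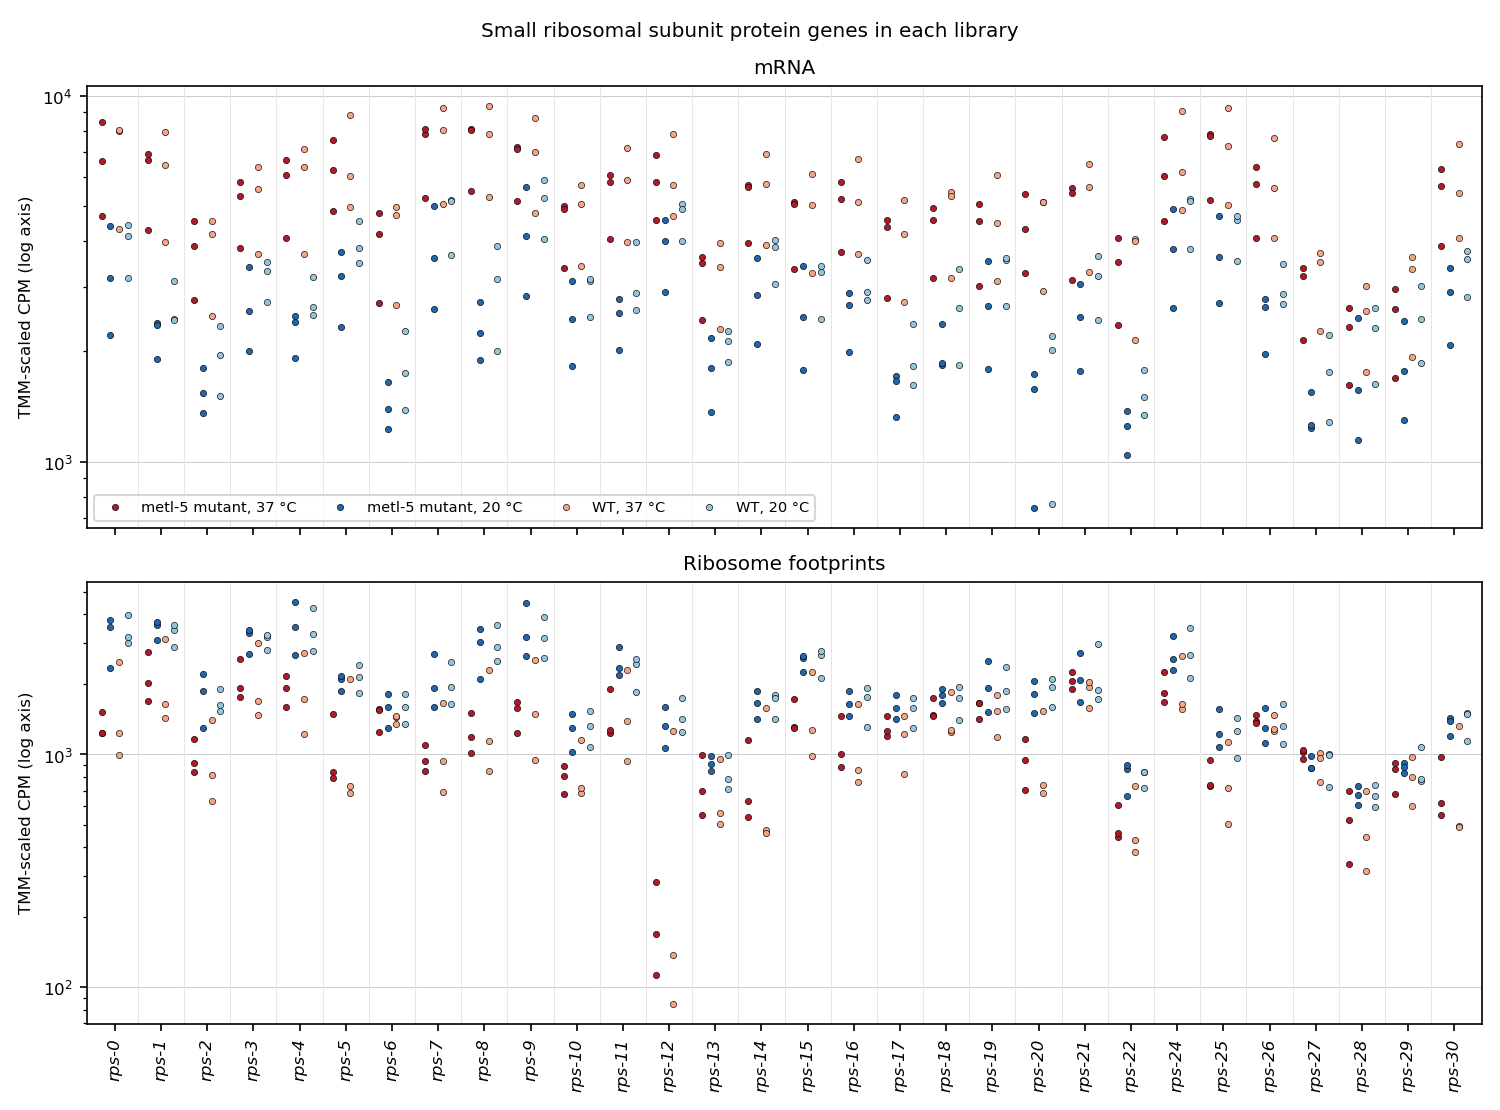
Level of each of the 30 small subunit genes in every library (y axis, TMM-scaled CPM, log axis), mRNA above and ribosome footprints below, with 1 point per library and 4 groups of 3 per gene. In the upper plot most points at 37 °C lie above those at 20 °C, and the 2 lowest rps-20 points, 748 and 768 CPM, are the 20 °C replicate 3 libraries. In the lower plot rps-12 has 5 points at 37 °C at 282 CPM or below and 1 at 1256 CPM.

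In 6 of the 12 mRNA libraries all members lay on the same side of their group means, in 4 above and in 2 below. One of these was WT 20 °C replicate 1, with all members above by 0.06 to 0.55 on the log2 scale. In the mutant library 20 °C replicate 3 the members deviated from their group means by -0.76 to 0.59 with a median of 0.30, and in the WT library 20 °C replicate 3 by -0.97 to 0.29 with a median of 0.03. In the mutant library 37 °C replicate 2 every member lay below its group mean, by 0.31 to 0.54, and in the WT library 37 °C replicate 2 by 0.34 to 0.61. The lowest deviation in both 20 °C replicate 3 libraries was that of rps-20, and the highest that of rps-28, with the values given above. These were the members with the largest and the smallest mRNA differences, and the part of the replicate 3 libraries in them was not tested.

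Ribosome footprints of the members had values below 0 at 37 °C for 28 of 30 in the mutant and 29 of 30 in WT. Most of them were not past the threshold in the main fit, which did not pair libraries by replicate number. In the metl-5 mutant 8 of 30 fell at 37 °C, where 14.7% of the 12387 genes tested fell, with a median of -0.68 over the members and -0.05 over all genes. In WT 1 of 30 fell, rps-0, where 6.93% of all genes fell, with a median of -0.63 over the members and -0.03 over all genes. All 3 libraries at 37 °C lay below all 3 at 20 °C for 20 members in the mutant (27.5% of all genes) and for 6 in WT (20.8% of all genes). In this edgeR fit the WT count of 1 was a smaller share than that of all genes. The fit did not use the replicate numbers, by which footprint libraries deviated together. DESeq2 called 10 in the mutant (16.6% of all genes) and 7 in WT (12.1%). With the replicate number as a block, 15 of 30 fell in the mutant (20.8% of all genes) and 12 of 30 in WT (14.3%). With that block the WT count was a larger share than that of all genes.

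These footprint counts turned on the libraries that stood apart. Without the libraries labelled metl-5 mutant 20 °C replicate 2 and WT 37 °C replicate 2, 18 members fell in the mutant (18.4% of all genes) and 21 in WT (19.7%), with medians of -0.78 and -0.99. Without all 6 libraries, with 1 library a strain left at 37 °C, 14 passed in the mutant (13.2% of all genes) and 18 in WT (12.5%), with medians of -0.91 and -1.17. Leaving out the library labelled WT 37 °C replicate 2 alone gave 18 in the mutant and 21 in WT. Leaving out mutant 20 °C replicate 1 or 3, or mutant 37 °C replicate 1 or 3, gave 0 in the mutant by edgeR. In WT the count was 0 without any 1 of these 4 libraries, of the 3 WT libraries at 20 °C or of WT 37 °C replicates 1 and 3. Shares of all genes are not given for the fits without 1 library, so these counts cannot be set against the whole table. Of the 8 adult tissue markers, footprints of 5 in the mutant and 4 in WT lay lower at 37 °C without overlap, with a summed level of 11593 to 23126 CPM in the mutant at 37 °C, against 33574 to 50133 CPM at 20 °C, and of 10549 to 28950 CPM in WT at 37 °C, against 35111 to 47633 CPM at 20 °C. Their part in the members' footprint values was not tested.

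Footprints of rps-0 fell in both strains. They stood at 1231, 1520 and 1242 CPM in the mutant at 37 °C, against 3540, 2354 and 3766 CPM at 20 °C. In WT they stood at 996, 2494 and 1237 CPM at 37 °C, against 3009, 3205 and 3972 CPM at 20 °C. No libraries overlapped between temperatures, although the WT library labelled 37 °C replicate 2 lay nearer to those at 20 °C. The difference was -1.27 ± 0.33 in the mutant (adjusted p = 0.0186) and -1.11 ± 0.33 in WT (adjusted p = 0.0404, edgeR), and -1.43 ± 0.21 and -1.60 ± 0.22 without the pair with intermediate hsp-70 (adjusted p = 0.000646 and 0.000473, edgeR). As the counts above show, these calls were also lost when 1 library was left out, with values of -1.45 to -1.15 in the mutant and -1.61 to -0.86 in WT. The other members that fell in the mutant were rps-8, rps-9, rps-7 (eS7), rps-20, rps-4, rps-2 and rps-12, with values of -2.82 to -0.88, and in WT these had values of -1.58 to -0.83 that did not pass.

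For rps-9 the footprints were 1237, 1679 and 1583 CPM in the mutant at 37 °C, against 3188, 2646 and 4486 CPM at 20 °C. In WT they were 943, 2540 and 1499 CPM at 37 °C, against 2587, 3163 and 3910 CPM at 20 °C, with the 37 °C replicate 2 library just under the lowest at 20 °C. Differences were -1.20 ± 0.34 in the mutant (adjusted p = 0.0252) and -0.96 ± 0.34 in WT (adjusted p = 0.0653, edgeR).

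The highest footprint values in this comparison were those of rps-27 and rps-26. Footprints of rps-27 stood at 1026, 1045 and 954 CPM in the mutant at 37 °C, against 877, 876 and 988 CPM at 20 °C. In WT they stood at 758, 1018 and 962 CPM at 37 °C, against 726, 1006 and 993 CPM at 20 °C. The libraries overlapped, with differences of 0.14 ± 0.20 and 0.01 ± 0.20 (adjusted p = 0.611 and 0.981, edgeR, mutant and WT). Likewise rps-26, for eS26, a platform protein that lines the mRNA exit, had 1397, 1361 and 1478 CPM in the mutant at 37 °C, against 1301, 1116 and 1581 CPM at 20 °C. WT libraries gave 1264, 1291 and 1479 CPM at 37 °C, against 1110, 1324 and 1645 CPM at 20 °C. They overlapped, with differences of 0.08 ± 0.21 and -0.02 ± 0.21 (adjusted p = 0.782 and 0.964, edgeR, mutant and WT). Footprints of rps-6 gave 1568, 1253 and 1552 CPM in the mutant at 37 °C, against 1607, 1300 and 1815 CPM at 20 °C. In WT they gave 1358, 1449 and 1466 CPM at 37 °C, against 1351, 1597 and 1824 CPM at 20 °C. The differences of rps-6 were -0.11 ± 0.21 and -0.16 ± 0.21 (adjusted p = 0.705 and 0.598, edgeR, mutant and WT), with overlapping libraries, beside the mRNA differences of 1.46 and 1.19.

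Per kilobase, footprints were highest for rps-21, which encodes eS21, a small body protein. They averaged 7860 ± 637, 8190 ± 1976, 7040 ± 937 and 8352 ± 2591 CPM per kilobase in the mutant at 37 °C, mutant at 20 °C, WT at 37 °C and WT at 20 °C (SD, n = 3 each). By library its footprints were 1916, 2059 and 2251 CPM in the mutant at 37 °C, against 2084, 1684 and 2719 CPM at 20 °C, and they overlapped. In WT they were 1581, 1941 and 2054 CPM at 37 °C, against 1738, 1887 and 2990 CPM at 20 °C, again overlapping. The lowest in WT at 20 °C was rps-13 (uS15, a body protein), with 1646 ± 495, 2022 ± 150, 1488 ± 550 and 1832 ± 330 CPM per kilobase in the same groups. Members spanned 4.05-fold in the mutant and 4.56-fold in WT at 20 °C. At 37 °C they spanned 17.6-fold in the mutant and 6.03-fold in WT, where rps-12 and rps-2 were the lowest.

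The lowest footprint difference at 37 °C was that of rps-12, for eS12, a head protein known in Drosophila for its part in cell competition. Its footprints stood at 112.5, 282 and 169 CPM in the mutant at 37 °C, against 1594, 1062 and 1330 CPM at 20 °C. In WT they stood at 84.8, 1256 and 137 CPM at 37 °C, against 1427, 1752 and 1251 CPM at 20 °C. The mutant groups were far apart, while in WT 2 libraries at 37 °C were as low as in the mutant and the library labelled 37 °C replicate 2 reached the level at 20 °C. Its mRNA stood at 6895, 4580 and 5799 CPM in the mutant at 37 °C, against 3998, 2902 and 4568 CPM at 20 °C. In WT the mRNA stood at 7865, 4704 and 5713 CPM at 37 °C, against 5070, 4018 and 4888 CPM at 20 °C. The mRNA libraries of the temperatures overlapped in WT but not in the mutant, and the mean was higher at 37 °C in both strains.

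The footprint difference of rps-12 was -2.82 ± 0.79 in the mutant (adjusted p = 0.0235) and -1.58 ± 0.75 in WT (adjusted p = 0.139, edgeR), and with the replicate block -2.20 in WT, past the threshold. Without the library labelled WT 37 °C replicate 2 it was -2.82 ± 0.33 in the mutant (adjusted p = 0.000256) and -3.74 ± 0.41 in WT (adjusted p = 0.000282, edgeR). Without all 6 doubted libraries, with 1 library a strain left at 37 °C, it was -3.72 in the mutant and -4.02 in WT. The gene lies on chromosome III from 5679298 to 5680187, plus strand, in the WBcel235 annotation, has 3 exons and holds 2 genes of small nucleolar RNAs between its ends, and counts on those genes were not analysed here. Such genes lie within rps-29, rps-13 and rps-4 as well. Their footprint differences were -0.10 ± 0.23, -0.30 ± 0.29 and -0.91 ± 0.31 in the mutant and -0.14 ± 0.23, -0.30 ± 0.29 and -0.86 ± 0.31 in WT, and of these only rps-4 in the mutant passed.

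**Figure D3:**
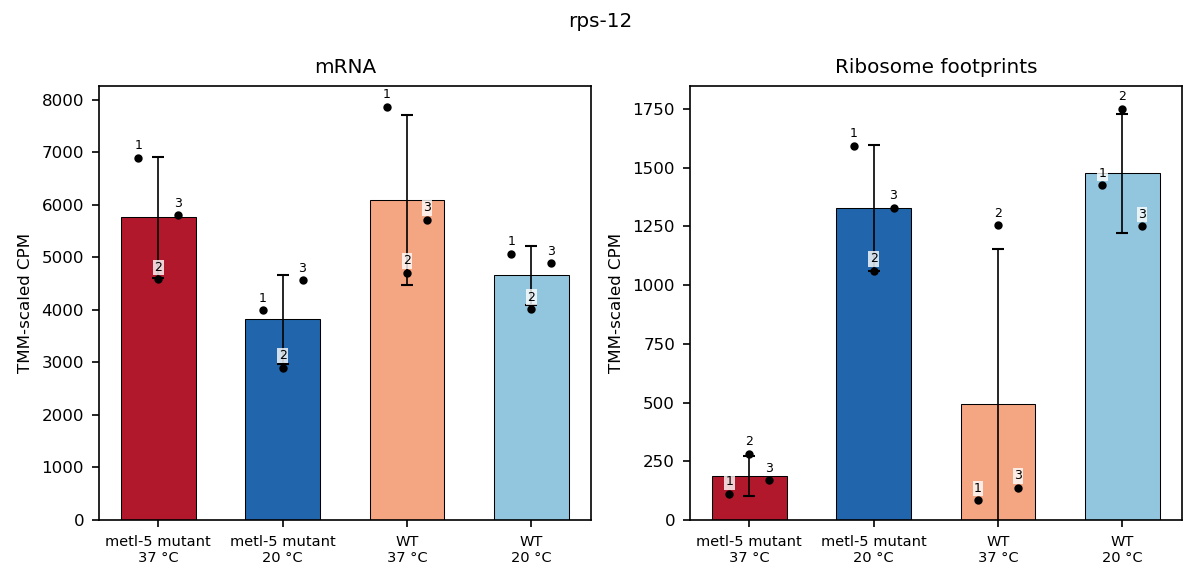
Level of rps-12 (y axis, TMM-scaled CPM) in mRNA on the left and ribosome footprints on the right, by strain and temperature. Bars are means, error bars SD (n = 3, cut at 0 at the lower end), and numbered points the replicates. Footprints at 37 °C lie at 84.8 to 282 CPM apart from the WT replicate 2 library at 1256 CPM, while those at 20 °C lie at 1062 to 1752 CPM.

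Footprints per mRNA, the translational efficiency of a gene relative to other genes, combined both changes. At 37 °C it fell for 22 of 30 members in the mutant, where 9.72% of the 12079 genes tested fell, with a median of -1.56 over the members and -0.07 over all genes. In WT it fell for 20 of 30, where 8.3% of all genes fell, with a median of -1.38 over the members and -0.03 over all genes. All 30 members had values below 0 in both strains. Values of the members that did not pass were -0.45 to -1.12 in the mutant and -0.41 to -1.96 in WT. In the mutant 10 of 13 head and 12 of 17 body and platform proteins fell, and in WT 8 and 12. Without the pair of libraries with intermediate hsp-70, 25 fell in the mutant (10.8% of all genes) and 24 in WT (13.3%), with medians of -1.65 and -1.79. Without all 6, with 1 footprint library a strain left at 37 °C, 20 passed in each strain (6.61 and 5.93% of all genes), with medians of -1.77 and -1.95. The WT count was 9 without any 1 of WT 20 °C mRNA replicate 2, WT 37 °C mRNA replicate 1, WT 20 °C footprint replicate 3 and WT 37 °C footprint replicates 1 or 3, and 11 without WT 20 °C footprint replicate 2. Scaling by total gene counts left 16 in the mutant and 8 in WT, with medians of -0.93 and -0.79, while the medians of all genes moved to 0.54 and 0.50. Shares of all genes are not given for this scaling or for the fits without 1 library, so these counts cannot be set against the whole table.

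Efficiency fell most for rps-12 in the mutant and for rps-8 in WT. The fitted ratio of footprints to mRNA of rps-12 was 0.0294 in the mutant at 37 °C, against 0.302 at 20 °C, and 0.0718 in WT at 37 °C, against 0.279 at 20 °C. That is a difference of -3.36 ± 0.85 in the mutant (adjusted p = 0.00779) and -1.96 ± 0.83 in WT (adjusted p = 0.104, edgeR), and of -4.09 ± 0.48 in WT without the library labelled WT 37 °C footprint replicate 2 (adjusted p = 1.23e-05, edgeR). For rps-8 the ratio was 0.155 in the mutant at 37 °C, against 1.10 at 20 °C, and 0.170 in WT at 37 °C, against 0.879 at 20 °C. Its footprints were 1015, 1503 and 1189 CPM in the mutant at 37 °C, against 3040, 2116 and 3474 CPM at 20 °C, and 850, 2300 and 1139 CPM in WT at 37 °C, against 2531, 2900 and 3586 CPM at 20 °C. The efficiency of rps-8 fell by 2.82 ± 0.49 in the mutant (adjusted p = 0.000673) and by 2.37 ± 0.48 in WT (adjusted p = 0.00235, edgeR).

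For rps-20 the ratio was 0.196 in the mutant at 37 °C, against 1.16 at 20 °C, and 0.2002 in WT at 37 °C, against 1.001 at 20 °C. It fell by 2.56 ± 0.55 in the mutant (adjusted p = 0.00266) and fell by 2.32 ± 0.55 in WT (adjusted p = 0.00568, edgeR). The efficiency of rps-0 fell by 2.23 ± 0.49 in the mutant and 1.88 ± 0.49 in WT, and that of rps-6 by 1.51 ± 0.38 and 1.34 ± 0.38 (adjusted p of 0.00302 to 0.0176, edgeR). For rps-27 the differences of -0.92 ± 0.36 and -0.83 ± 0.36 did not pass (adjusted p = 0.0728 and 0.111, edgeR, mutant and WT). The smallest belonged to rps-29 and rps-28. The ratio of rps-29 was 0.305 in the mutant at 37 °C, against 0.418 at 20 °C, and 0.237 in WT at 37 °C, against 0.315 at 20 °C, a difference of -0.45 ± 0.42 and -0.41 ± 0.42 (adjusted p = 0.5 and 0.556, edgeR). Under scaling by total gene counts rps-29 had values above 0, at 0.16 in the mutant and 0.17 in WT. Footprints of rps-29 stood at 863, 920 and 674 CPM in the mutant at 37 °C, against 918, 885 and 834 CPM at 20 °C, and at 800, 972 and 604 CPM in WT at 37 °C, against 769, 1073 and 784 CPM at 20 °C, with overlap in both strains. For rps-28 the differences were -0.65 ± 0.47 and -0.60 ± 0.47 (adjusted p = 0.365 and 0.419, edgeR, mutant and WT).

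**Figure D4:**
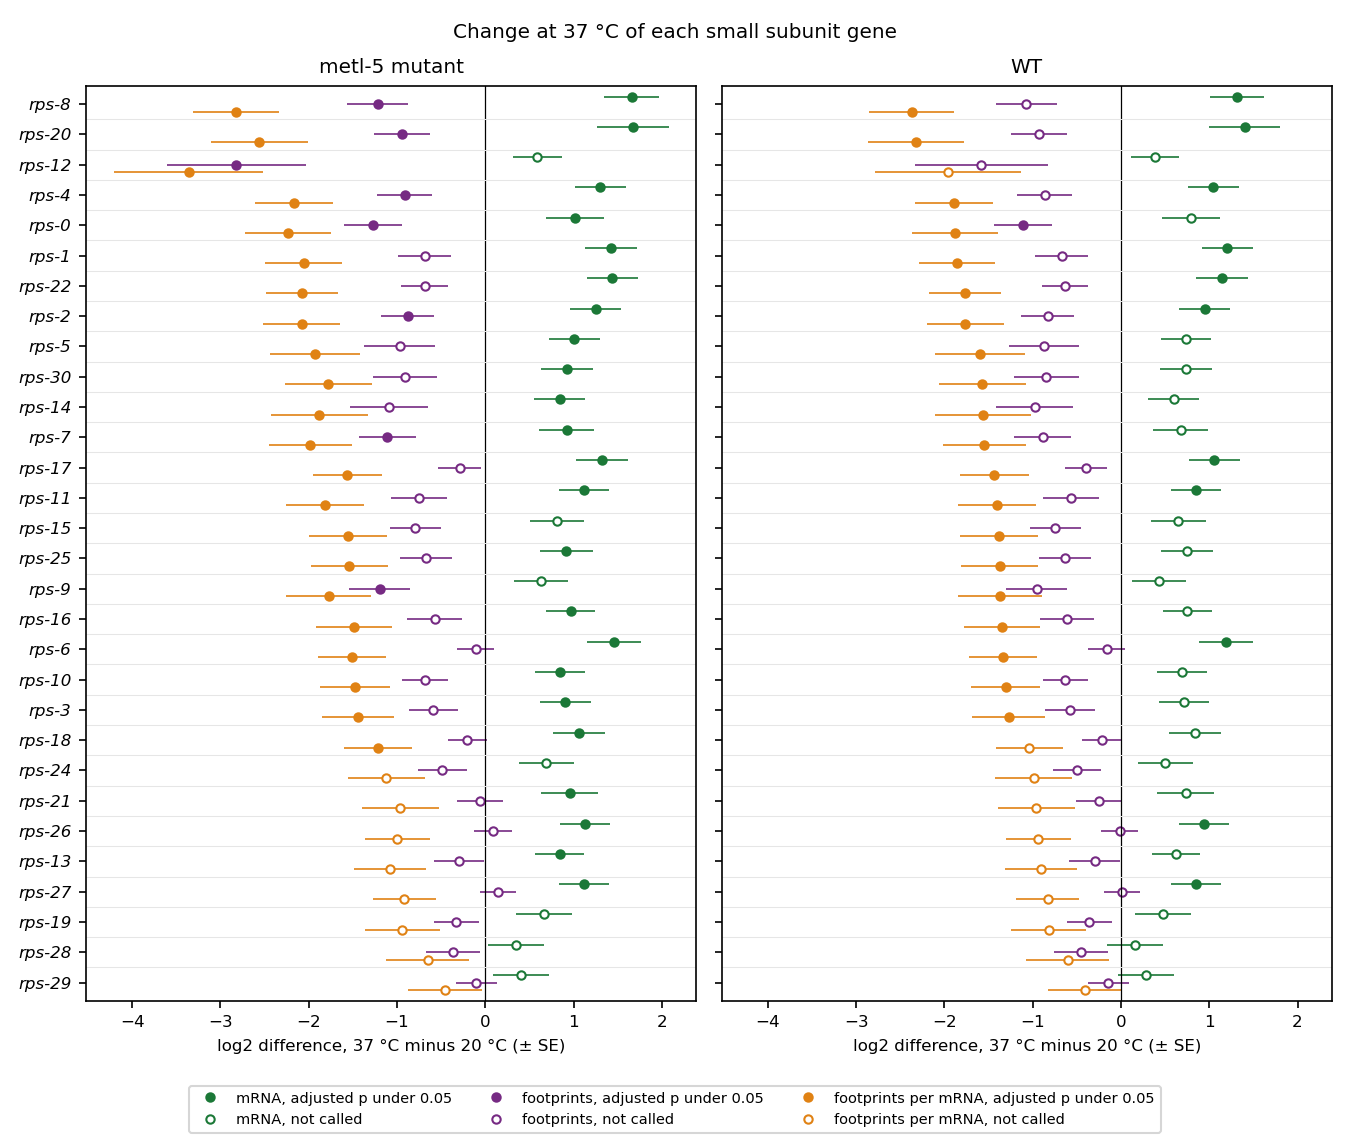
Difference between 37 °C and 20 °C (x axis, log2, ± SE) of each of the 30 small subunit genes (rows) in the metl-5 mutant on the left and WT on the right, for mRNA, ribosome footprints and footprints per mRNA. Filled points passed an adjusted p of 0.05 over all genes. The mRNA points lie between 0.16 and 1.67, and the footprints per mRNA between -3.36 and -0.41.

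The members also differed in efficiency within a group, on a scale where a typical gene lies near 0. At 20 °C the log2 footprints per mRNA had a median of -0.65 in the mutant and -0.95 in WT, and 13 and 18 of 30 lay below 0 past the threshold (21.9 and 23.2% of all genes). At 37 °C the medians were -2.15 in the mutant and -2.24 in WT, and all 30 lay below 0 past the threshold in both strains (22.6% of all genes in each). This 30 of 30 held in every fit run, although in the fit without the 6 libraries it rests on 1 footprint library a strain. The mutant count at 20 °C was 7 without the library labelled metl-5 mutant 20 °C footprint replicate 2 and 8 without the mRNA library metl-5 mutant 20 °C replicate 3. Shares of all genes are not given for these fits. By this ratio of counts, not divided by length, the lowest members were rps-12, rps-25 and rps-28 at 20 °C and rps-12 and rps-25 at 37 °C. The highest were rps-1 and rps-4 at 20 °C and rps-21 and rps-3 (uS3, at the mRNA entry) at 37 °C. The order depends on length. In WT at 20 °C rps-20 had 5370 CPM of footprints per kilobase of coding sequence and 2830 CPM of mRNA per kilobase of exon. For rps-1 these were 4285 and 3079 CPM, so per length rps-20 stood above rps-1. The ratio of rps-25 was 0.105 in the mutant at 37 °C, against 0.305 at 20 °C, and 0.0971 in WT at 37 °C, against 0.252 at 20 °C. That of rps-1 was 0.327 in the mutant at 37 °C, against 1.36 at 20 °C, and 0.301 in WT at 37 °C, against 1.09 at 20 °C. For rps-4 it was 0.306 in the mutant at 37 °C, against 1.37 at 20 °C, and 0.294 in WT at 37 °C, against 1.09 at 20 °C. The footprints of rps-4 stood at 1607, 2168 and 1923 CPM in the mutant at 37 °C, against 3540.5, 2688 and 4510 CPM at 20 °C, and at 1227, 2738 and 1733 CPM in WT at 37 °C, against 2792, 3303 and 4252 CPM at 20 °C. No libraries overlapped between temperatures, as its mRNA did not either. Those of rps-25 stood at 732, 945 and 740 CPM in the mutant at 37 °C, against 1219, 1071 and 1573 CPM at 20 °C, and at 502, 1132 and 716 CPM in WT at 37 °C, against 962, 1264 and 1429 CPM at 20 °C, where WT overlapped. By 37 °C the ratio of rps-21 was 0.396 in the mutant and 0.322 in WT, and that of rps-3 was 0.379 and 0.353. Across the 30 members the efficiency at 20 °C went with coding length, with a Pearson correlation of 0.62 in the mutant and 0.64 in WT. Because this ratio was not divided by length, the coding part of a gene's exons enters that correlation, and its share was not tested. Coding sequence made up 390 of 706 exon bases for rps-22 and 771 of 865 for rps-1. The difference of efficiency at 37 °C went with length in the other direction, with -0.50 and -0.56. That difference subtracts the level at 20 °C, so the 2 correlations share a term and are not separate results. These are descriptions over members that share all libraries.

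**Figure D5:**
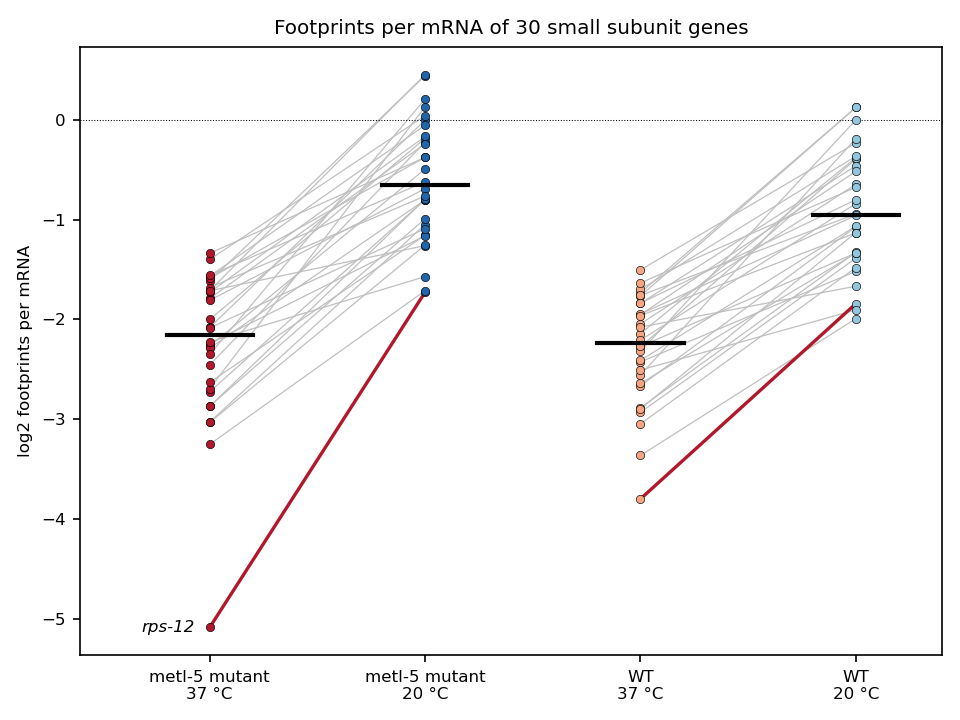
Footprints per mRNA (y axis, fitted log2 ratio) of the 30 small subunit genes in each strain and temperature, with 1 point per gene, grey lines joining a gene's values within a strain, rps-12 in red, and a black bar for the median. The medians are -2.15 and -0.65 in the mutant at 37 and 20 °C, and -2.24 and -0.95 in WT at 37 and 20 °C.

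The strains were compared at each temperature, which asks whether loss of metl-5 went with a change in these genes. No member passed the threshold in mRNA, footprints or efficiency, at 37 or 20 °C or in the interaction of strain with temperature. In each of these 9 comparisons edgeR called 0 of 30 members, 0 had an unadjusted p under 0.05 and DESeq2 called 0. Among all genes 0.00751% were called higher and 0.0225% lower in mRNA at each temperature, and 0% in the other comparisons. The mRNA of all 30 members had a lower fitted level in the mutant at 20 °C, with a median of -0.30 (range -0.42 to -0.22, median of all genes -0.02), and the libraries of rps-1 and rps-4 did not overlap, where 1.99% of all genes had all mutant libraries below all WT ones. The median was -0.18 without the library metl-5 mutant 20 °C replicate 2 and -0.19 without WT 20 °C replicate 1. At 37 °C the median was -0.08, and it ran from -0.28 to 0.13 as single libraries were left out.

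Largest in the strain comparison at 20 °C was the mRNA value of rps-29, with 1764, 1303 and 2418 CPM in the mutant and 3016, 1864 and 2459 CPM in WT, which overlapped, at -0.42 ± 0.32 (adjusted p = 1, edgeR). Next was rps-8 at -0.40 ± 0.30, and smallest were rps-25 at -0.22 ± 0.29 and rps-13 at -0.23 ± 0.27. For rps-25 the libraries gave 3616, 2711 and 4676 CPM in the mutant and 4583, 3526 and 4690 CPM in WT. For rps-13 they gave 1805, 1365 and 2170 CPM in the mutant and 2270, 1870 and 2137 CPM in WT. Libraries of the strains overlapped for each of these genes. Within same-numbered pairs of libraries, however, the mutant was lower in all 3 for rps-29, rps-8 and rps-25, and for 24 of the 30 members (12.1% of all genes). At 37 °C this held for 6 members (16.6% of all genes). Pairing is uncertain for replicate 1 at 20 °C, where the libraries of the strains correlated at 0.19 and not best with each other. With the replicate number as a block 0 members passed at either temperature. At 37 °C rps-29 was again lowest at -0.29 ± 0.32, followed by rps-28 at -0.16 ± 0.32, and nearest to 0 were rps-2 at -0.01 ± 0.29 and rps-13 at -0.02 ± 0.27. The mRNA of rps-2 stood at 3883, 2764 and 4532 CPM in the mutant and 4540, 2493 and 4188 CPM in WT at 37 °C, and at 1802, 1355 and 1538 CPM in the mutant and 2353, 1953 and 1507 CPM in WT at 20 °C.

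Between strains the footprint values had a median of 0.01 at both temperatures, with 15 of 30 members above 0 at 37 °C and 16 at 20 °C. At both temperatures this comparison used footprint libraries, named above, with counts of a gene absent from the mRNA of their labelled strain. A median near 0 therefore does not show that the strains were alike, and the same holds for the strain values of efficiency. At 20 °C the range was -0.15 ± 0.73 (rps-12) to 0.14 ± 0.29 (rps-13), with rps-0 at -0.08 ± 0.32 and rps-11 (uS17) at 0.11 ± 0.31. Footprints of rps-13 stood at 986, 912 and 850.5 CPM in the mutant and 707, 996 and 786 CPM in WT at 20 °C, and those of rps-11 at 2347, 2198 and 2889 CPM in the mutant and 1851, 2451 and 2568 CPM in WT. At 37 °C the range was -1.39 ± 0.75 (rps-12) to 0.16 ± 0.24 (rps-17, eS17, of the head). Footprints of rps-17 stood at 1197, 1469 and 1265 CPM in the mutant and 824, 1467 and 1222 CPM in WT at 37 °C, with overlap. The rps-12 value was 0.76 ± 0.36 without the library labelled WT 37 °C replicate 2 (adjusted p = 1, edgeR), so its direction turned on that library.

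Efficiency at 20 °C had values above 0 for all 30 members, with a median of 0.32 and a range of 0.12 ± 0.82 (rps-12) to 0.46 ± 0.44 (rps-11), and the median was 0.13 to 0.42 as single libraries were left out. Close to the top was rps-18 (uS13, in the head at a bridge to the large subunit) at 0.43 ± 0.38, with mRNA of 2373, 1834 and 1862 CPM in the mutant and 3349, 2623 and 1841 CPM in WT, and footprints of 1800, 1668 and 1918 CPM in the mutant and 1400, 1945 and 1748 CPM in WT. At 37 °C the median was 0.08, from -1.29 ± 0.83 (rps-12) to 0.36 ± 0.42 (rps-29). In the interaction, the mRNA values ran from 0.13 ± 0.45 (rps-29) to 0.34 ± 0.43 (rps-8) with a median of 0.22. The mRNA of rps-10 (eS10, of the head) was next to rps-29 at 0.16 ± 0.40, with 4994, 3390 and 4908 CPM at 37 °C and 2446, 1819 and 3113 CPM at 20 °C in the mutant, and 5702, 3414 and 5042 CPM at 37 °C and 3118, 2485 and 3159 CPM at 20 °C in WT. Footprint interactions ran from -1.24 ± 1.04 (rps-12) and -0.24 ± 0.48 (rps-9) to 0.13 ± 0.29 (rps-27) and 0.19 ± 0.37 (rps-21), and efficiency interactions from -1.40 ± 1.17 (rps-12) and -0.45 ± 0.68 (rps-8) to -0.04 ± 0.59 (rps-29), with rps-21 nearest to 0. The strain tests did not call the deleted gene itself. The mRNA of metl-5 differed by -1.38 ± 0.39 at 37 °C and -2.06 ± 0.39 at 20 °C (adjusted p = 1 and 0.139, edgeR), and its footprints by -0.49 ± 0.52 and -2.04 ± 0.53 (adjusted p = 1 and 1, edgeR). The absence of calls among the members therefore does not show that the strains were alike.

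Other genes of the ribosome and its supply were listed by role for comparison. Of the partners of the small subunit, ubl-1 encodes its protein eS31 fused to a ubiquitin-like protein, rack-1 a scaffold on its head, and ubq-2 a large subunit protein fused to ubiquitin. All 3 rose in mRNA in the mutant at 37 °C, by 0.95 to 1.05, and had values of 0.72 to 0.79 in WT that did not pass. The footprints of rack-1 stood at 656, 836 and 931 CPM in the mutant at 37 °C, against 2574, 1608 and 2458 CPM at 20 °C, and at 618, 1637 and 823 CPM in WT at 37 °C, against 2097, 2244 and 2424 CPM at 20 °C. They fell by 1.45 ± 0.33 in the mutant (adjusted p = 0.0142) and by 1.14 ± 0.33 in WT (adjusted p = 0.0398, edgeR), and no libraries overlapped. The efficiency of all 3 fell in both strains, by 1.51 to 2.36 in the mutant and 1.37 to 1.84 in WT.

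Large subunit genes had medians close to those of the members. Of 44 genes with the prefix rpl or rla, 24 rose in mRNA in the mutant and 13 in WT (10.8 and 9.76% of all genes), with medians of 0.88 and 0.68. Their footprints fell for 14 in the mutant and 4 in WT (14.7 and 6.93% of all genes), with medians of -0.75 and -0.72. Their efficiency fell for 32 in the mutant and 31 in WT (9.72 and 8.3% of all genes), with medians of -1.61 and -1.40. The 29 mitochondrial small subunit genes (mrps), made in the same cytoplasm for the ribosomes of mitochondria, gave other values. Their efficiency fell for 3 and rose for 1 in each strain, with medians of -0.11 in the mutant and -0.03 in WT. The 3 of 29 that fell were close to the 9.72 and 8.3% of all genes. In mRNA 7 of the 29 rose in the mutant and 6 in WT (10.8 and 9.76% of all genes), with medians of 0.42 and 0.27. None of these differences between lists was tested.

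Of 21 nucleolar and assembly genes measured, efficiency rose for nol-10, pro-2 and lpd-6 in both strains, by 1.61 to 1.96 in the mutant and 1.52 to 1.96 in WT, and fell for nst-1 (nucleostemin) by 1.37 and 1.09. The remaining 17 did not pass in either strain. Among all 12079 genes tested, 2528 passed in the mutant and 2335 in WT in either direction, so this list lay near the share of all genes. The mRNA of ncl-1, known for its mutants with enlarged nucleoli, fell by 0.84 ± 0.21 in the mutant (adjusted p = 0.0122) and 0.67 ± 0.21 in WT (adjusted p = 0.0378, edgeR). In mRNA 2 of the 21 rose and 1 fell in the mutant, and 1 rose and 2 fell in WT. The other 18 did not pass in each strain, where 2660 of 13315 genes passed in the mutant and 2432 in WT. Of 10 TOR and S6 kinase genes, the efficiency of rheb-1 (the activator of TOR) and raga-1 (a TOR-regulating GTPase) rose and that of ragc-1 fell in both strains. The remaining 7 did not pass in efficiency. In mRNA 1 of the 10 rose, 1 fell and 8 did not pass in each strain, near the share of all genes. The mRNA of larp-1, whose human counterpart LARP1 binds ribosomal protein mRNAs, fell by 1.12 ± 0.27 in the mutant (adjusted p = 0.00924) and 1.14 ± 0.27 in WT (adjusted p = 0.00922, edgeR). The S6 kinase gene rsks-1 averaged 83.3 ± 16.01 CPM of mRNA in the mutant at 37 °C and 140 ± 32.0 at 20 °C, and 85.4 ± 22.95 in WT at 37 °C and 149 ± 46.1 at 20 °C (SD, n = 3 each), and it did not pass (adjusted p = 0.066 and 0.0546, edgeR, mutant and WT).

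The members are spread over 5 chromosomes in the WBcel235 annotation, with 8 on I, 1 on II, 9 on III, 9 on IV and 3 on V. Exons of rps-16 (uS9) overlap those of T01C3.11 on the opposite strand, and because mRNA reads were counted without strand the 2 genes' mRNA reads cannot be told apart there. Exons of rps-4 overlap those of Y43B11AR.3 on the same strand, so counts of rps-4 are uncertain in both assays. The annotation also places hhat-2 on the opposite strand of rps-18 exons and a microRNA gene, mir-354, within rps-20 exons, and counts on these were not analysed here. The mRNA of rps-16 stood at 5817, 3733 and 5232 CPM in the mutant at 37 °C, against 2676, 1998 and 2885 CPM at 20 °C. In WT it stood at 6706, 3684 and 5110 CPM at 37 °C, against 3548, 2759 and 2908 CPM at 20 °C. It rose by 0.97 ± 0.28 in the mutant (adjusted p = 0.0243) and had 0.75 ± 0.28 in WT (adjusted p = 0.0708, edgeR), near the members' medians.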

How the data were processed

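The authors deposited, for each library, a table of raw counts per gene in unstranded and stranded columns. The submitters' processing notes name STAR and DESeq2 with no version. Build, annotation and aligner options were details not given in the sources used here. For mRNA the unstranded counts were used, since the 2 strands held nearly equal counts (50.5 to 50.9% in the column used for footprints). For footprints the column that held 99.6 to 99.9% of stranded counts was used. Reads outside genes, 19.5 to 27.1% of an mRNA library and 14.8 to 52.1% of a footprint library, and the authors' own comparison tables were left out.

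Libraries were grouped by the strain and temperature in the labels. Genes were filtered with filterByExpr, libraries scaled with TMM, and all 12 libraries of an assay (24 for footprints per mRNA, as an interaction with assay) fitted together with edgeR 4.0.16 (R 4.3.3), without a block. All 30 members passed the filters. Alternatives were DESeq2 1.42.0, other scalings, no filter, a replicate block, fewer groups and left-out libraries. Same-numbered footprint libraries deviated together from their group means, with correlations of 0.11 to 0.70 over all 12 pairs, and so did same-numbered mRNA libraries of the strains, with 0.19 to 0.67, so the numbers were taken to pair these samples. The exception was mRNA replicate 1 of the strains at 20 °C, at 0.19, where the same number did not correlate best. The main fits did not use this pairing, and fits with the replicate block are given as an alternative. Same-numbered footprint and mRNA libraries of a group correlated at 0.091 to 0.685, and efficiency was tested without this pairing. No 2 libraries of a group agreed within sampling noise. Values per library are given for rps-0, rps-6 and rps-27, for the 2 highest and 2 lowest members of each comparison, and for the members highest and lowest per length; rps-16, rack-1 and rsks-1 were added after their values were seen. Names came from a table that paired 19332 genes with a symbol, and positions from WBcel235 (Ensembl), with 19568 genes found. The members, lists and tests were chosen with earlier results of these data known. The code was tested on simulated data.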

Additional observations from a re-analysis of the deposited data

Results flagged for a closer look

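Footprint counts on the strand opposite to the members, which no comparison used, made up a larger share in every mutant library at 37 °C than in the WT libraries at 20 °C. The share of the members' stranded footprint counts was 0.00906% ± 0.00203 in the mutant at 37 °C (SD, n = 3; 14 to 21 counts a library), against 0.00474% ± 0.00134 at 20 °C (19 to 55 counts). In WT it was 0.00692% ± 0.00514 at 37 °C (10 to 19 counts a library), against 0.00486% ± 0.00141 at 20 °C (26 to 58 counts). The library labelled WT 37 °C replicate 1, at 0.0128%, lay above every mutant library, and the counts themselves were on average lower at 37 °C than at 20 °C in both strains. Most of them lay on 1 gene, rps-19, with 14 of 14, 17 of 21 and 15 of 19 counts in the mutant at 37 °C. The source of these counts was not tested.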

How the results depend on the processing

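Of the counts of called members recomputed under alternatives, 434 stayed within a factor of 1.5 of the count given, 12 were higher and 39 lower, and the cause was not tested. The 434 include the strain and interaction comparisons, whose count of 0 stayed 0 in every fit without 1 library. The heat counts were less stable, and shares of all genes under the alternatives are given only where printed above. Of 12 fits without 1 library, the mRNA count moved by more in 4 (mutant) and 5 (WT), and the footprint count in 8 (mutant) and 10 (WT). With total gene counts as the scale, 10 members rose in mRNA in the mutant and 6 in WT (medians 0.365 and 0.236), and rps-28 and rps-29 turned to -0.236 and -0.183 in the mutant and -0.338 and -0.228 in WT. For efficiency that scale gave medians of -0.927 (mutant) and -0.791 (WT) with 8 calls in WT, 0.164 and 0.174 for rps-29, -0.019 for rps-12 between strains at 20 °C, 0.045 for the rps-21 interaction, and within-group medians at 37 °C of -1.702 (mutant) and -1.708 (WT). Summed mRNA shares against TMM-scaled sizes were 14.69 and 7.399% in the mutant at 37 and 20 °C and 15.54 and 9.146% in WT. With a replicate block, 28 rose in mRNA in the mutant and 25 in WT, while footprints fell for 15 (mutant) and 12 (WT); the mRNA libraries of the 2 temperatures shared only a number, with correlations of -0.06 to 0.53, and no other count moved by over 1.5 times. In a fit of only the groups compared, mRNA gave 7 calls in WT, footprints 16 in the mutant and 0 in WT, and efficiency 7 in WT. DESeq2 gave 7 footprint calls in WT, and no filter 5 in the mutant. Near 0, the strain value of rps-2 mRNA at 37 °C turned to 0.007 (DESeq2 and RLE), 0.024 (total counts), 0.013 (replicate block) and 0.015 (groups compared), and the WT footprint value of rps-26 to 0.001 (DESeq2 and RLE), 0.079 and 0.005. Without the 2 libraries with intermediate hsp-70, footprints gave 18 calls in the mutant and 21 in WT, rps-26 -0.008 and 0.014, rps-27 -0.078 in WT, and, between strains, rps-12 0.775 at 37 °C, 0.798 in the interaction and rps-9 0.066; efficiency gave a WT median of -1.785, 0.852 and 0.599 for rps-12 (37 °C and interaction) and 0.132 for rps-29. Without the 6, which left 1 footprint library a strain at 37 °C, footprints gave 14 and 18 calls with medians of -0.91 and -1.168, rps-26 -0.066 (mutant), rps-27 -0.212 (WT), rps-12 0.119, 0.413 and 0.294 (20 °C, 37 °C, interaction) and rps-9 0.163; efficiency gave a WT median of -1.954, 0.517 and 0.104 for rps-12 and 0.068 for rps-21. Leaving out 1 library at a time gave 8 to 24 (mutant) and 1 to 22 (WT) mRNA calls, 0 to 18 and 0 to 21 footprint calls, 9 to 24 efficiency calls in WT with medians of -1.78 to -1.158, 7 to 16 within-group calls in the mutant at 20 °C, and footprint interaction medians of -0.219 to 0.317. Single values that changed sign then ran as follows: rps-2 strain at 37 °C -0.226 to 0.168; mRNA interaction of rps-29 -0.107 to 0.375 and of rps-10 -0.029 to 0.356; rps-28 WT mRNA -0.011 to 0.352; footprints of rps-26 -0.026 to 0.224 (mutant) and -0.147 to 0.144 (WT), and of rps-27 -0.134 to 0.127 (WT). For the strains, footprints of rps-17 ran from -0.037 to 0.361 and of rps-12 from -1.89 to 0.762 at 37 °C, with interactions of -1.739 to 0.913 (rps-12), -0.525 to 0.204 (rps-9) and -0.098 to 0.387 (rps-21). Efficiency of rps-12 ran from -0.049 to 0.275 at 20 °C and -1.787 to 0.849 at 37 °C, with interactions of -1.901 to 0.737 (rps-12), -0.719 to 0.065 (rps-8), -0.3 to 0.193 (rps-29) and -0.286 to 0.241 (rps-21). Member counts of 400 and above make counting error small beside the spread between libraries.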
